A study of Mus musculus with 6 samples.

Results

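The Notch signaling genes described here were 3 receptors (Notch1, Notch2, Notch3), 2 ligands (Jag1, Dll4), 4 target transcription factors (Hes1, Hey1, Hey2, Heyl) and the feedback inhibitor Nrarp. They were chosen by name, as the rows whose Ensembl gene ID carried these symbols, and made up 10 of the 54232 genes in the table of read counts. They were read in 3 WT and 3 Pbrm1 cKO RNA-seq libraries of primary smooth muscle cells, isolated from the oviducts of female mice 8 to 12 weeks old on day 2 of pregnancy. Pbrm1 encodes BAF180, a subunit of the PBAF form of the SWI/SNF chromatin remodeling complex. The study makes its Pbrm1 cKO females from a floxed allele (Pbrm1 fl/fl) and the PR-IRES-cre allele, in which cre is driven by the progesterone receptor gene and acts in cells that express it. The labels call the controls WT, whereas a legend of the study names Pbrm1 fl/fl mice. Every library came from digested oviducts whose cells had been filtered and plated for 4 hours and then 2 hours in medium with serum. Whether each library was 1 animal or a pool is not stated in the labels, so p-values measure the spread between libraries.

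Notch signaling passes between touching cells. A Jagged or Delta-like ligand on one cell binds a Notch receptor on its neighbor, ADAM proteases and the gamma-secretase complex then cut the receptor, and the freed intracellular domain joins the DNA-binding protein RBPJ and a mastermind protein to switch on genes of the HES and HEY families and Nrarp. In blood vessels and other muscular tubes, Jag1 and the receptors Notch2 and Notch3 are known for guiding the differentiation of smooth muscle, whereas Dll4 is best known from endothelium.

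Library totals ranged from 15390818 to 18947947 counts, and levels are given as CPM, which are counts after scaling for library size. The floor of 3 counts was 0.158 to 0.195 CPM. Such a floor covers counting error only. Means are given as ± SD over 3 libraries (n = 3). Pbrm1 was at 170, 183 and 172 CPM across WT, against 43.5, 50.7 and 42.7 CPM in the cKO libraries, always in the order of replicates 1, 2 and 3. The cKO mean was 26.0% of the WT mean, with no overlap between the groups. The counts cover every exon of the gene, any deleted exon included. The smooth muscle markers Acta2, Myh11 and Des had mean levels of 1287, 88.2 and 239 CPM in WT. The cultures also held transcripts of other cell types, whose levels are given beside the results they bear on. In such bulk libraries, fewer cells of a type and less RNA per cell cannot be told apart.

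Promoter sequences are shown first for the genes whose control by Notch, or whose change between the groups, is the subject of the values that follow. RefSeq windows from 250 bases before to 50 bases after the start (build GRCm38.p6) were held for 7 of the 10 genes, namely Notch1, Notch2, Notch3, Jag1, Dll4, Hey2 and Nrarp. The upstream end of the Notch1 window, at 26504072, lies inside the counted gene, which reaches to 26516663. The Notch1 window thus does not cover the sequence before the counted gene. They were searched on both strands for TGGGAA, the core letters of an RBPJ site, for GTGGGAA, a longer form that contains the core, and for the E box CACGTG, which HES and HEY proteins and many other factors bind. GTGGGAA occurred in 6.38% of 32851 windows, TGGGAA in 25.6% and CACGTG in 7.15%. Of the 7 windows, only that of Hey2 held GTGGGAA, in 2 copies of opposite strand, at positions -207 to -201 and -4 to 3 from the RefSeq start. Windows with 2 or more copies of GTGGGAA made up 0.256% of all windows. The core TGGGAA was likewise held by the Hey2 window only, within its 2 GTGGGAA copies. Only that of Nrarp held CACGTG, at -108 to -103. A match of letters describes the sequence and does not show that a factor binds there. The Hey2 promoter (chr10:30842802-30843033, minus strand) is given 5′ to 3′ with the upstream copy in capitals, where it reads as the reverse complement, followed by 27 bases around the copy at the start, which lie within the counted gene (chr10:30842771-30842797, minus strand):
Hey2 promoter: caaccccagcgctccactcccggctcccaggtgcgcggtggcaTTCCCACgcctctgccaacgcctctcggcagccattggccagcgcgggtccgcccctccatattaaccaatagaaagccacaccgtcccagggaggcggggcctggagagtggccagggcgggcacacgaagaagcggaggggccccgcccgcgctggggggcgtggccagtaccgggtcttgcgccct
Hey2 start: gggctgcagcGTGGGAAagaacctcca
The Nrarp promoter (chr2:25180508-25180757, plus strand) is shown with its E box in capitals, as that of the other target with a window:
Nrarp promoter: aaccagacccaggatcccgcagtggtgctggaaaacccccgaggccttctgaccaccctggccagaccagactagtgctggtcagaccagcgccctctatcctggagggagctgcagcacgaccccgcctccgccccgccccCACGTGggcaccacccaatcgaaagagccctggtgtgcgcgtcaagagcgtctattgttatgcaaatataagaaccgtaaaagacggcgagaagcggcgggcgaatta
The promoters of the ligands, Jag1 (chr2:137116645-137116770, minus strand) and Dll4 (chr2:119325534-119325783, plus strand), are shown because these genes had the largest changes in opposite directions among the receptors and ligands of the 10 genes. Neither held any of the letters searched, so nothing is in capitals:
Jag1 promoter: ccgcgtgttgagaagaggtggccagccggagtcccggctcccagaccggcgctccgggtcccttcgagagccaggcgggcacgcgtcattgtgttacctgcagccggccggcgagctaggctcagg
Dll4 promoter: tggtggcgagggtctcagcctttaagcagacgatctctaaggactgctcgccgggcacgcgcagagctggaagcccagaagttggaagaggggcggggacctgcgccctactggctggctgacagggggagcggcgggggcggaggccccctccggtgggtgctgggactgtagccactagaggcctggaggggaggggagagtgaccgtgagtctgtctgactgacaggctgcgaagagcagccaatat

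All 10 genes passed the filter on low counts. Between Pbrm1 cKO and WT cells, 2 of them rose (Dll4 and Notch3) and 3 fell (Hey2, Jag1 and Notch2), at an adjusted p under 0.05 in edgeR's quasi-likelihood test. In the other 5 (Notch1, Hes1, Hey1, Heyl and Nrarp) the difference did not pass. The share of 5 in 10 is close to the background, since 43.7% of 15376 tested genes passed the same test, 21.9% as higher and 21.8% as lower in cKO. The same 5 genes were those whose cKO and WT libraries did not overlap, which held for 53.5% of all tested genes. The median log2 fold change of the 10 genes was 0.12, beside 0.0016 over all tested genes.

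**Figure D1:**
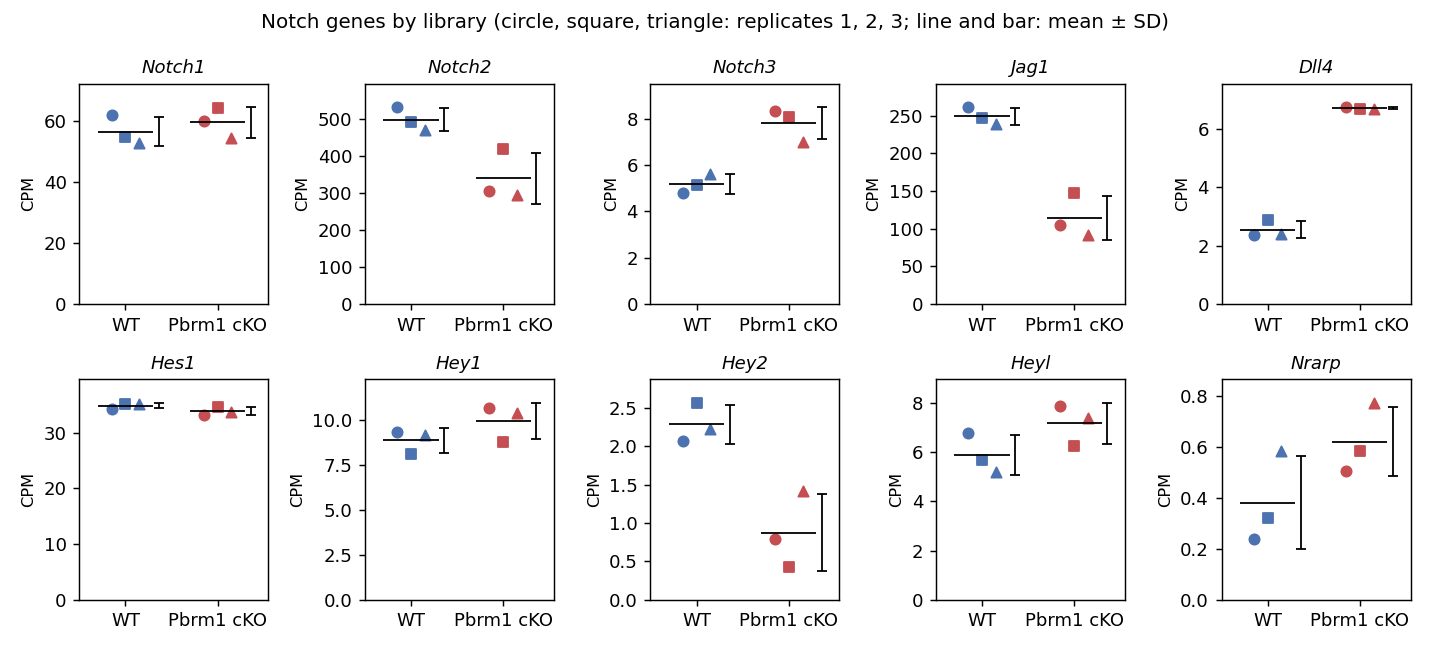
Normalized counts (CPM, y axis from 0) of the 10 Notch genes in each of 3 WT (blue) and 3 Pbrm1 cKO (red) libraries, with the mean as a line and the SD as a bar. Dll4 and Notch3 lie higher and Notch2, Jag1 and Hey2 lower in every cKO library, and the groups overlap in the other 5 panels.

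The order of the levels was compared on the scale of CPM per kilobase of exon, which allows genes of different length to be set side by side. In WT cells Notch2 (46.2 ± 2.91) and Jag1 (42.7 ± 1.91) stood highest and their ranges over 3 libraries overlapped. Hes1 followed at 17.1 ± 0.235, then Notch1 at 3.97 ± 0.334, Hey1 at 2.71 ± 0.208 and Heyl at 1.15 ± 0.160. Dll4 (0.662 ± 0.0759) and Notch3 (0.644 ± 0.0521) overlapped each other, and Hey2 (0.498 ± 0.0555) and Nrarp (0.148 ± 0.0705) were lowest. The WT cells thus carried mainly a Notch2, Jag1 and Hes1 message. In cKO cells Notch2 (31.5 ± 6.30) again ranked above Jag1 (19.6 ± 5.05), here without overlap of their ranges. The range of Jag1 took in that of Hes1 (16.6 ± 0.350). Dll4, at 1.74 ± 0.00908, lay above Heyl at 1.40 ± 0.162 without overlap, whereas in WT it lay below it. Hey2 (0.191 ± 0.109) and Nrarp (0.240 ± 0.0530) overlapped in cKO and were again the lowest.

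**Figure D2:**
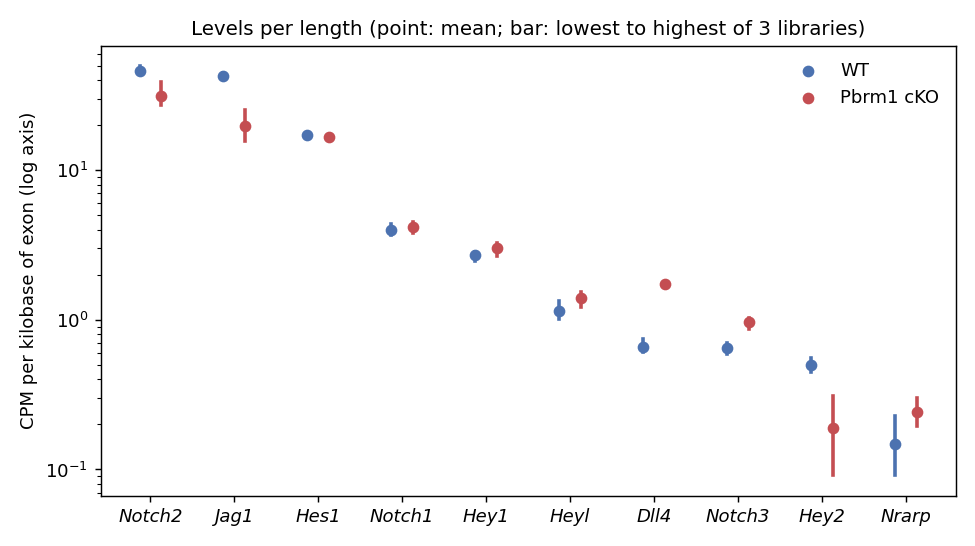
Level of each Notch gene in CPM per kilobase of exon on a log axis, with the mean as a point and the lowest to highest of 3 libraries as a bar, in WT (blue) and Pbrm1 cKO (red). Notch2, Jag1 and Hes1 stand above all others in both groups, and Dll4 moves above Heyl in cKO.

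Among the receptors, Notch2 fell, Notch3 rose and Notch1 did not pass the test. Notch2 (ENSMUSG00000027878.11, GRCm38 chromosome 3, plus strand, 98013527 to 98150361), the most abundant receptor here, was at 532, 491 and 470 CPM across WT, against 306, 418 and 295 CPM in cKO replicates 1, 2 and 3. Every cKO library lay below every WT library, and cKO replicate 2 lay closest to WT. The mean dropped from 498 ± 31.4 CPM to 340 ± 68.0 CPM, or to 68.2% of WT. This was a log2 fold change of -0.55 (SE 0.10, adjusted p = 0.000596 by edgeR), which became -0.72 without cKO replicate 2. Notch2 overlaps the gene models Gm42819 and Gm42820 on its own strand, which held 216 and 166 counts over all 6 libraries, and reads shared with them were not counted.

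Notch3 (ENSMUSG00000038146.7, chromosome 17, minus strand, 32120820 to 32166880), the receptor best known from arterial smooth muscle and pericytes, changed the other way from a low level. It was at 4.79, 5.13 and 5.62 CPM across WT, against 8.32, 8.06 and 7.01 CPM in cKO, so that the lowest cKO library stood above the highest WT library. The cKO level was 151% of WT, with a log2 fold change of 0.59 (SE 0.12, adjusted p = 0.0016 by edgeR). Of 7 pericyte markers listed, 6 were tested and all passed, 5 as higher and 1 as lower in cKO, beside 43.7% of all tested genes. Their median log2 fold change was 0.96, beside 0.0016 over all tested genes. The summed level was 126 to 147 CPM in WT and 129 to 136 CPM in cKO, and its largest part was Cspg4, the marker that fell (91.3 ± 9.84 to 55.9 ± 15.5 CPM), which was named after its value had been seen. Of 12 smooth muscle markers 7 rose and 1 fell, or 66.7% called. Their summed level was 3927 to 4018 CPM in WT and 5028 to 5708 CPM in cKO. The part of either cell type in the Notch3 difference was not tested.

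Notch1 (ENSMUSG00000026923.15, chromosome 2, minus strand, 26457903 to 26516663) was at 61.8, 54.7 and 52.8 CPM across WT, against 60.0, 64.2 and 54.2 CPM in cKO. The groups overlapped. Its log2 fold change was 0.08 with a 95% confidence interval from -0.08 to 0.23 (adjusted p = 0.41 by edgeR), so a change beyond 1.18-fold upward lay outside the interval. Notch4, the remaining receptor of the mouse, was at 4.93 ± 1.08 (WT) and 5.29 ± 0.649 CPM (cKO) (log2 fold change 0.09, 95% interval -0.27 to 0.46).

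As a share of the summed CPM per kilobase of Notch1, Notch2 and Notch3, Notch2 made up 90.9, 91.0 and 90.8% in the WT libraries and 84.4, 87.5 and 85.4% in the cKO libraries. Notch3 made up 1.10, 1.28 and 1.45% in WT and 3.08, 2.26 and 2.72% in cKO. Notch1, whose level did not pass the test, made up 8, 7.69 and 7.72% in WT and 12.6, 10.2 and 11.9% in cKO. None of these shares overlapped between the groups, and Notch2 remained the main receptor transcript in all 6 libraries. The shares of a library add up to the whole and are not independent, so a fall of Notch2 alone raises the others. These shares are given as a description, since an exact permutation of 3 against 3 libraries cannot give a p below 0.10.

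The ligands moved in opposite directions: Jag1 fell and Dll4 rose. Jag1 (ENSMUSG00000027276.7, chromosome 2, minus strand, 137081456 to 137116644), the Jagged ligand through which smooth muscle cells and endothelium signal to neighboring muscle cells, was at 261, 247 and 239 CPM across WT, against 104, 147 and 91.0 CPM in cKO. The cKO libraries lay far below all WT libraries, and replicate 2 was again the highest of them. The mean dropped from 249 ± 11.2 CPM to 114 ± 29.4 CPM, or to 45.9% of WT (log2 fold change -1.12, SE 0.12, adjusted p = 7.24e-06 by edgeR). A larger change in either direction was found in 5.11% of all tested genes. Without cKO replicate 2 the log2 fold change was -1.34. In that library Pbrm1 itself was the highest of the cKO libraries, at 50.7 CPM, and the summed smooth muscle markers were the nearest to WT. Other values of that library were the farthest from WT, among them Hey2 (0.424 CPM) and the summed leukocyte markers (1188 CPM). Whether these differences bear on Notch2 and Jag1 was not tested.

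Dll4 (ENSMUSG00000027314.6, chromosome 2, plus strand, 119325784 to 119335962) was at 2.36, 2.89 and 2.40 CPM across WT, against 6.75, 6.68 and 6.69 CPM in cKO. The 3 cKO libraries were nearly equal and all lay above WT. The cKO level was 263% of WT (log2 fold change 1.39, SE 0.14, 95% interval 1.08 to 1.69, adjusted p = 4.28e-06 by edgeR). A larger change was found in 3.21% of all tested genes. These values rest on 40, 54 and 41 counts in the WT libraries and on 120, 126 and 104 in the cKO libraries.

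Because Dll4 is best known from endothelium, endothelial markers were set beside it. Of 14 markers 5 rose, 1 fell and 8 did not pass, or 42.9% called beside 43.7% of all tested genes. Their median log2 fold change was 0.07, and their summed level was 425 to 450 CPM in WT and 383 to 397 CPM in cKO. The largest part of this sum was Kdr, the only marker that fell, so the lower sum in cKO does not describe the other markers. Pecam1, an adhesion molecule of endothelial junctions, was at 60.1 ± 0.958 (WT) and 65.9 ± 2.86 CPM (cKO) (log2 fold change 0.13, adjusted p = 0.0577 by edgeR). Cdh5, the endothelial cadherin, was at 32.9 ± 4.10 and 32.3 ± 3.63 CPM (log2 fold change -0.03, adjusted p = 0.818 by edgeR). Pecam1 and Cdh5 did not pass the test, although Pecam1 was higher in every cKO library than in any WT library. Kdr, the main receptor for vascular endothelial growth factor A, fell from 182 ± 6.61 to 99.4 ± 11.3 CPM (log2 fold change -0.87). The part of endothelial cells in the Dll4 difference was not tested.

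Among the other ligands, Dlk1, a noncanonical ligand that lacks the domain needed to activate Notch, fell from 5.90 ± 0.835 to 2.27 ± 0.403 CPM (log2 fold change -1.37, SE 0.18, adjusted p = 3.21e-05 by edgeR). The canonical ligands Jag2 and Dll1 did not pass the test and were expressed at low levels. Jag2 was at 3.82 ± 0.929 (WT) and 3.51 ± 0.121 CPM (cKO) (95% interval of the log2 fold change -0.52 to 0.27). Dll1 was at 0.882 ± 0.326 and 1.04 ± 0.512 CPM (95% interval -0.56 to 1.08), so that no change was detectable at this depth and the interval holds changes of either sign.

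**Figure D3:**
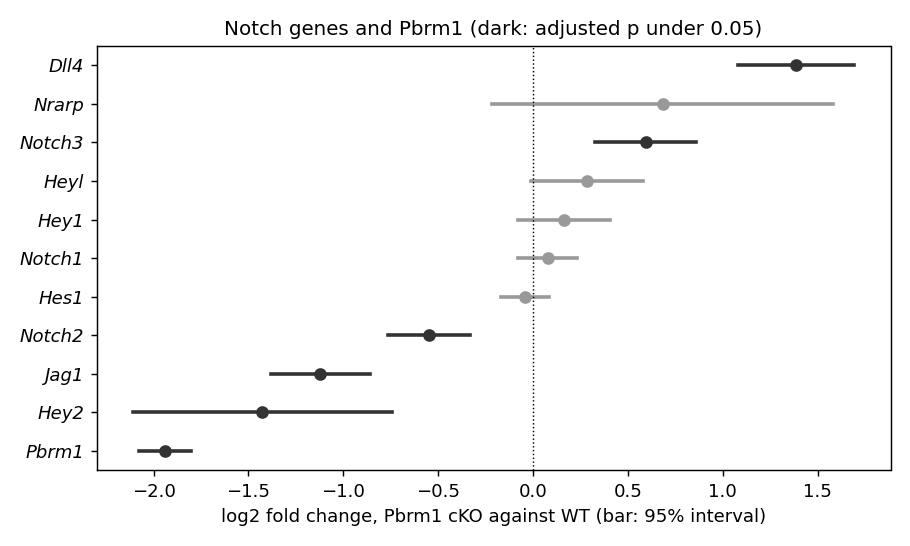
log2 fold change of Pbrm1 cKO against WT for the 10 Notch genes and Pbrm1, with 95% intervals as bars; dark points passed an adjusted p of 0.05 and gray points did not. Hey2, Jag1 and Notch2 lie below 0, Notch3 and Dll4 above 0, and the interval of Nrarp is the widest.

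Of the 4 target transcription factors, Hey2 fell and the others did not pass the test. Hey2 (ENSMUSG00000019789.9, chromosome 10, minus strand, 30832359 to 30842801), a repressor that is switched on by Notch in arteries and heart and whose promoter with 2 GTGGGAA copies is shown above, was at 2.07, 2.57 and 2.23 CPM across WT, against 0.787, 0.424 and 1.42 CPM in cKO. The groups did not overlap, and the cKO libraries differed from each other more than the WT libraries did. With 35, 48 and 38 counts in the WT libraries and 14, 8 and 22 in the cKO libraries, these values rest on few reads. The cKO mean was 38.3% of WT (log2 fold change -1.43, SE 0.32, 95% interval -2.11 to -0.74, adjusted p = 0.00248 by edgeR). The log2 fold change was -1.07 without cKO replicate 2, the lowest library, and -1.92 without cKO replicate 3, the highest, and it passed the test in both cases.

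Hes1 (ENSMUSG00000022528.8, chromosome 16, plus strand, 30064384 to 30067796), the most widely used target of Notch and the most abundant of the 4 here, was at 34.3, 35.1 and 35.1 CPM across WT, against 33.2, 34.6 and 33.7 CPM in cKO. The groups overlapped, and the fold change was the smallest of the 10 genes. The log2 fold change was -0.04 with a 95% interval from -0.17 to 0.08 (adjusted p = 0.599 by edgeR). The interval left out a fall to below 0.891 of WT and a rise above 1.06-fold.

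Hey1 (ENSMUSG00000040289.8, chromosome 3, minus strand, 8663359 to 8667256), a repressor of the same family as Hey2, was at 9.34, 8.07 and 9.13 CPM across WT, against 10.6, 8.75 and 10.4 CPM in cKO. The lowest cKO library lay within the WT range (log2 fold change 0.16, 95% interval -0.08 to 0.40, adjusted p = 0.264 by edgeR). Heyl (ENSMUSG00000032744.4, chromosome 4, plus strand, 123233556 to 123249875), a family member known from vascular smooth muscle, was at 6.80, 5.67 and 5.21 CPM across WT, against 7.87, 6.26 and 7.40 CPM in cKO. Its log2 fold change was 0.28 (95% interval -0.01 to 0.58, adjusted p = 0.114 by edgeR), and among 14 alternatives it passed only when cKO replicate 2 was left out (0.38, adjusted p = 0.0352 by edgeR). In the summed CPM per kilobase of the 4 factors, Hes1 made up 78.4, 80.6 and 80.0% in WT and 76.6, 80.9 and 77.1% in cKO, and Hey2 made up 2.10, 2.62 and 2.25% in WT and 0.806, 0.440 and 1.43% in cKO. The Hes1 share overlapped between the groups and the Hey2 share did not.

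Nrarp (ENSMUSG00000078202.3, chromosome 2, plus strand, 25180758 to 25183339), a target that limits the signal by lowering the stability of the Notch intracellular domain, was the least abundant of the 10 genes. The WT libraries held 4, 6 and 10 counts of it and the cKO libraries 9, 11 and 12, or 0.236, 0.321 and 0.585 CPM against 0.506, 0.584 and 0.772 CPM. The groups overlapped, and all counts lay between 4 and 12, near the floor of 3. The log2 fold change of 0.68 (SE 0.42) had a 95% interval from -0.21 to 1.58, so that both no change and a fall as well as a rise lay inside it (adjusted p = 0.206 by edgeR).

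The rest of the pathway was read from a list of 59 further genes with roles in Notch signaling, of which 53 were tested. In this list 11 genes rose, 11 fell and 31 did not pass. The 22 genes that passed made up 41.5% of those tested, beside 43.7% of all genes, and the median log2 fold change was -0.001. Both the share called and the median of this list were thus close to those of all genes. Dll3, Rbpjl, Hes2, Hes3, Hes5 and Hes7 were too low to be tested.

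Rbpj, the DNA-binding partner of every Notch receptor, rose from 39.0 ± 2.22 to 56.1 ± 1.15 CPM (log2 fold change 0.52, SE 0.06, adjusted p = 9.59e-06 by edgeR). Its values were 39.6, 40.9 and 36.5 CPM in WT and 57.4, 55.4 and 55.5 CPM in cKO, without overlap. Maml3, a mastermind coactivator, rose by a log2 fold change of 0.36, and Maml1 and Maml2 did not pass (-0.07 and -0.12). Of 8 tested genes of nuclear activation 2 rose and 2 fell, or 4 of 8 called beside 43.7% of all tested genes. Among corepressors 1 of 8 rose and 3 fell, the same share, with Tle3, a Groucho-type corepressor, at a log2 fold change of -0.34.

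Of 9 genes of receptor cleavage 3 rose, none fell and 6 did not pass, or 33.3% called beside 43.7% of all tested genes (21.9% as higher and 21.8% as lower). No test of direction was run for this or any other role. Ncstn, the nicastrin subunit of gamma-secretase, rose from 82.8 ± 2.35 to 117 ± 6.53 CPM (log2 fold change 0.49, adjusted p = 5.59e-06 by edgeR). Aph1b, another subunit, rose by 0.44 on the log2 scale. Its near copy Aph1c was listed at 1.19 ± 0.311 (WT) and 1.08 ± 0.0743 CPM (cKO), and reads that fit both copies may have been lost. Of 6 genes of receptor maturation 2 rose and none fell, which is again 33.3%. These were Lfng and Rfng, fringe enzymes that add sugars to the receptor and thereby change which ligands it answers to, with log2 fold changes of 0.54 and 0.29. Lfng was at 12.0, 10.8 and 11.5 CPM across WT, against 16.2, 14.9 and 18.6 CPM in cKO.

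Of 6 genes of ligand ubiquitination and endocytosis, which prepare the ligand for signaling, 3 rose and 2 fell, or 83.3% called beside 43.7% of all tested genes (21.9% as higher and 21.8% as lower). Mib1, the main ubiquitin ligase of Notch ligands, fell from 257 ± 3.28 to 205 ± 7.12 CPM (log2 fold change -0.33, adjusted p = 4.61e-05 by edgeR), and its relative Mib2 rose from 19.6 ± 2.09 to 27.9 ± 2.33 CPM (log2 fold change 0.51, adjusted p = 0.000496 by edgeR). Neurl1a, a ligase of the neuralized family, fell by a log2 fold change of -0.68 from 2.73 CPM. Among 9 genes of receptor turnover and inhibition none rose and 3 fell, or 33.3% called, which is below the share over all tested genes. The 3 included Numbl, a relative of the Notch inhibitor Numb, at a log2 fold change of -0.33.

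**Figure D4:**
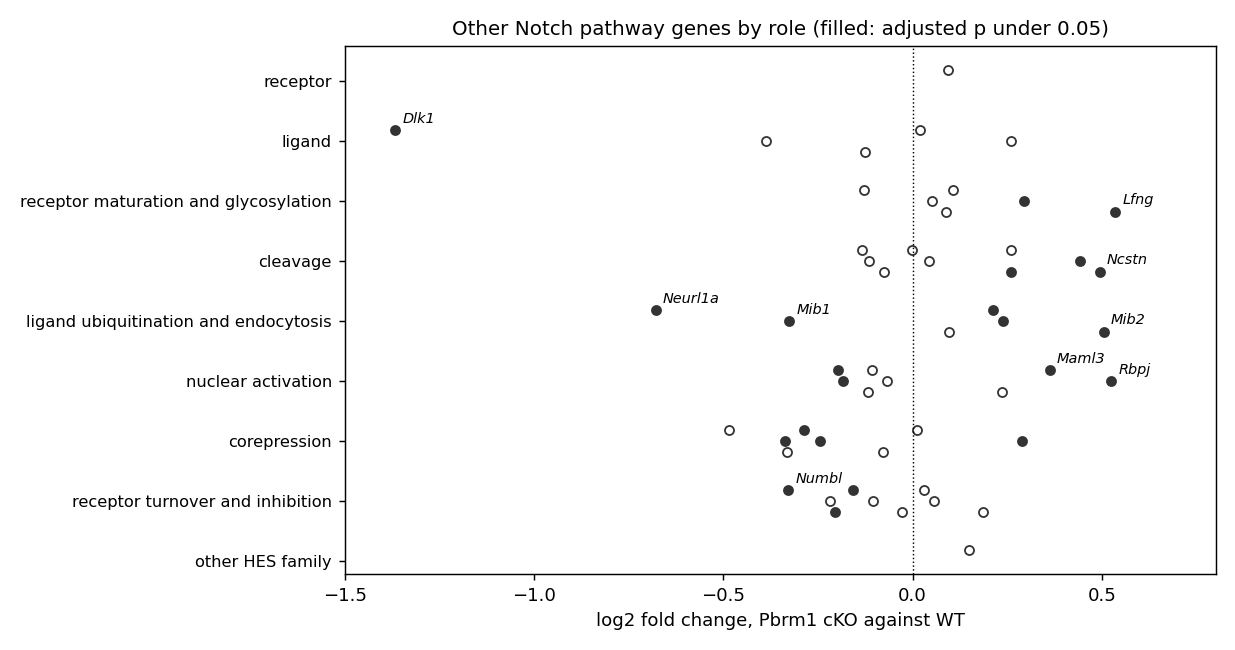
log2 fold change of Pbrm1 cKO against WT for 53 other Notch pathway genes, 1 point a gene, in rows by role; filled points passed an adjusted p of 0.05. Dlk1 lies farthest to the left at -1.37, the cleavage and receptor maturation genes that passed lie to the right of 0, and the rows of ligand endocytosis and nuclear activation hold filled points on both sides.

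Genes known to respond to Notch in muscle and other cells formed a list of 10, of which 5 rose and 3 fell, or 80.0% called beside 43.7% of all genes. Their median log2 fold change was 0.16. This list is not particular to Notch, since several of its genes also mark smooth muscle. Efnb2, an ephrin ligand of arterial cells, fell from 137 ± 10.9 to 77.2 ± 5.97 CPM (log2 fold change -0.83, adjusted p = 4.67e-07 by edgeR). Its values were 134, 149 and 127 CPM in WT and 83.6, 76.2 and 71.8 CPM in cKO, so that all cKO libraries were far below WT. Myc, a growth regulator, fell by a log2 fold change of -0.38, and Ccnd1, which encodes cyclin D1, rose by 0.35. Myh11, the smooth muscle myosin heavy chain, rose from 88.2 ± 0.910 to 147 ± 13.2 CPM (log2 fold change 0.74, adjusted p = 5.18e-07 by edgeR). Pdgfrb, the platelet-derived growth factor receptor of mural cells, rose by 0.42.

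The counts of the marker lists are given since they stand beside every Notch value. The share called was 100% of tested leukocyte, 80% of fibroblast, 60% of epithelial and 66.7% of mesothelial markers, and 66.7% of dissociation genes. Over all tested genes it was 43.7%, with 21.9% as higher and 21.8% as lower. Des, the muscle intermediate filament, rose from 239 ± 5.06 to 554 ± 47.0 CPM, and Acta2, smooth muscle actin, rose from 1287 ± 33.5 to 1536 ± 131 CPM. Of the 12 smooth muscle markers 7 rose and 4 did not pass (Cnn1, Actg2, Synpo2 and Myocd). Smtn fell from 136 ± 11.2 to 111 ± 5.78 CPM, and was named after its value had been seen. All 11 tested leukocyte markers rose, with a summed level of 744 to 793 CPM in WT and 1095 to 1188 CPM in cKO. Of 10 fibroblast markers 7 rose and 1 fell (4978 to 5547 CPM and 7444 to 7796 CPM), and of 10 epithelial markers 5 rose and 1 fell (965 to 1052 CPM and 1075 to 1199 CPM). Of 6 mesothelial markers 1 rose and 3 fell (325 to 335 CPM and 350 to 381 CPM). The largest part of this sum was Krt19, the marker that rose (125 ± 4.34 to 216 ± 16.1 CPM), which was named after its value had been seen. Of 12 genes that answer to tissue dissociation 7 rose and 1 fell (505 to 583 CPM and 668 to 741 CPM). Markers of every class were thus present in both groups, and the part of cell makeup or dissociation in the Notch differences was not tested.

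**Figure D5:**
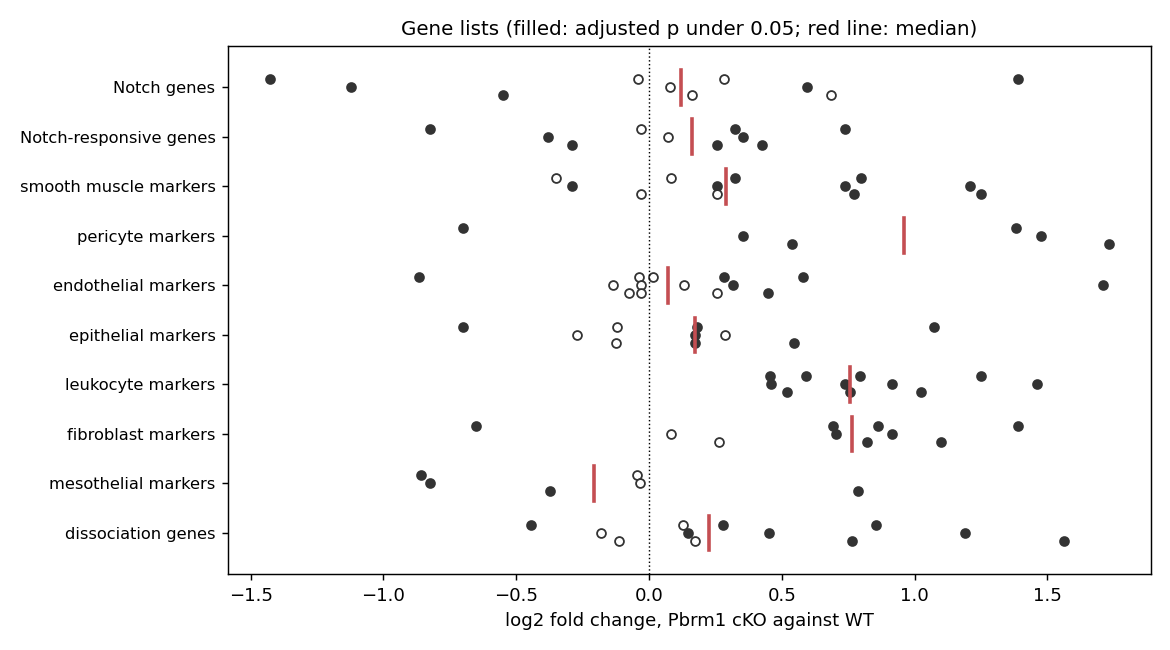
log2 fold change of Pbrm1 cKO against WT for the Notch genes with Pbrm1 left out, the Notch-responsive genes and the marker lists, 1 point a tested gene, filled where the adjusted p was under 0.05, with the median as a red line. The Notch genes spread from -1.43 to 1.39 around a median of 0.12, and all leukocyte markers lie to the right of 0.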

How the data were processed

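Total RNA from primary oviductal smooth muscle cells (3 WT and 3 Pbrm1 cKO libraries, grouped by the labels) was made into strand-specific libraries. The authors deposited whole-number read counts per gene, which per the file headers were obtained with featureCounts 1.6.4 in reverse-stranded mode over GENCODE M18 exons from adapter-trimmed alignments. Its default options drop multimapping reads and reads shared by genes of 1 strand. The submitters' processing notes name cutadapt, HISAT2 and build GRCm38.p5. Symbols were assigned to 54079 of 54232 gene IDs (99.7%) from a table of gene names.

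Counts were tested with edgeR 4.0.16 under R version 4.3.3, by its two-sided quasi-likelihood test after TMM normalization and filterByExpr by group, adjusted by Benjamini-Hochberg over all 15376 genes that passed, at 0.05. The SE was the absolute log2 fold change divided by the square root of F. CPM were scaled with the TMM factors. The script was tested on simulated counts. Every pair of libraries of a group differed by more than sampling noise (chi-square tests), and all 6 were used. Alternatives were DESeq2 1.42.0, limma-voom (limma 3.58.1), other scalings, filters and thresholds, a replicate block, and each library left out in turn.

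The 10 genes, the lists and the rule for naming genes were chosen with earlier results of these data known. The rule names all 10 genes, Pbrm1, Rbpj, Notch4, Jag2 and Dll1, and genes with an adjusted p under 0.05 by largest change, up to 12 of the other pathway list and 5 of the responsive list, and of the marker lists Pecam1, Cdh5, Kdr, Acta2, Myh11 and Des. Genes named only as not tested, as not passing or as a near copy beside these fall outside it. So do the pericyte, endothelial, smooth muscle and mesothelial markers that were named after their values had been seen. Promoter windows are from RefSeq (GRCm38.p6, whose chromosome coordinates are those of the GRCm38 table) and are printed up to the first base of the counted gene, apart from the 27 bases around the Hey2 start, which lie within it.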

Additional observations from a re-analysis of the deposited data

How the results depend on the processing

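The calls of Dll4, Notch3, Notch2 and Jag1 kept their direction and passed in all 14 alternatives, with log2 fold changes of 1.33 to 1.49, 0.54 to 0.66, -0.72 to -0.46 and -1.34 to -0.98. Hey2 passed in the 13 that could be computed (-1.92 to -1.07); a minimum of 10 counts in every library removed Hey2 and Nrarp, which left 4 genes called. Notch1, Hes1, Hey1 and Nrarp passed in none of theirs. Leaving out single libraries gave 0.20 to 0.39 for Heyl, which passed without cKO replicate 2, so that 6 genes were called there. At an adjusted p under 0.01 the other pathway genes called dropped from 22 to 14, while the 10 genes kept a count of 5. Without division by length the mean shares were 89.0% (WT) and 83.3% (cKO) for Notch2, 0.931% and 1.95% for Notch3, 67.2% and 65.4% for Hes1, and 4.41% and 1.68% for Hey2. The replicate number gave no clear pairing of the libraries. The deviations of same-numbered libraries correlated by -0.024, 0.035 and 0.093, and not every library correlated best with its own number. Such correlations cannot show that the libraries were unpaired. With the replicate number as a block, 5 of the 10 genes and 25 other pathway genes were called. Depth limits Nrarp and Hey2, and with 3 libraries a group and no record of animals the error is that between libraries.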
